A study of Mus musculus with 5 samples.

Results

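The peaks described here are Ring1b peaks called in KAP1 knockout embryonic stem cells that lie on sites where KAP1 was bound in cells that still had it. They are the peaks of the deposited Ring1b knockout list, outside chromosome 8, that share at least 1 bp with a peak of the deposited KAP1 list, and they are called KAP1-site peaks below. Of the 7800 knockout-list peaks outside chromosome 8, 1068 met this rule, which is 13.7% (95% exact interval 12.9% to 14.5%). The whole knockout list held 8928 peaks. The other 6732 peaks outside chromosome 8 had no KAP1 overlap. Overlap chose the peaks, so the share describes the choice and is not a finding.

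Chromatin immunoprecipitation followed by sequencing was done on mouse embryonic stem cells, with 1 library per group, and 4 libraries stand behind these peaks. Ring1b was precipitated from KAP1 fl/fl cells given 4-hydroxytamoxifen for 24 h and then grown for 48 h without it. Its peaks were called against Ring1b from Ring1b fl/fl cells given the drug for 24 h and kept in tamoxifen for the next 48 h. KAP1 was precipitated from KAP1 fl/fl cells given ethanol vehicle, and its peaks were called against the same line given 4-hydroxytamoxifen. The labels call the drug-treated cells knockouts of their conditional (fl/fl) gene. A further list, Ring1b in vehicle-treated Ring1b fl/fl cells, was called against the same tamoxifen Ring1b fl/fl library as the knockout list. The knockout list therefore compares different cell lines, and loss of KAP1 and the difference between lines cannot be told apart. All cells grew on irradiated mouse embryonic fibroblasts, peak lists hold no expression, and so neither the deletions nor the cell type could be checked here. Each group had 1 library and therefore no replicate error, so nothing here was tested between conditions. Peaks are not replicates, and the intervals given on shares cover counting error only.

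KAP1, encoded by Trim28, is a corepressor that zinc finger proteins with a KRAB domain bring to DNA, where it recruits a histone methyltransferase and heterochromatin protein. Ring1b, encoded by Rnf2, is the catalytic subunit of Polycomb repressive complex 1 and places ubiquitin on histone H2A. In embryonic stem cells Ring1b is best known at CpG-rich promoters of silent developmental regulators, while KAP1 is best known for silencing retroviral repeats and zinc finger gene clusters.

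Promoter sequences are shown first for the 6 highest-scoring KAP1-site peaks whose midpoint lay in a RefSeq promoter window, together with a pair of histone genes that come up again below. The scores given in this report are 10 times the authors' -log10 p for a peak against its control library, as deposited. Each sequence is the 250 bases before the transcript start, from RefSeq (GRCm38.p6), written 5′ to 3′ on the strand of the gene. Capitals mark letters that match any of 7 short motifs searched on both strands. They were the TATA box (TATAAA), the E-box (CACGTG), the GC box (GGGCGG), an ETS core (CGGAAG), the CCAAT box (CCAAT), the cAMP response element (TGACGTCA) and the NRF1 motif, which none of the sequences held. Hectd4 (chr5:121219969-121220218, plus strand) encodes a HECT domain protein and had a peak score of 143. Rack1 (chr11:48800110-48800359, plus strand) encodes a scaffold protein of the small ribosomal subunit and had a score of 127. Mdp1 (chr14:55660452-55660701, minus strand) encodes a magnesium-dependent phosphatase, with a score of 123, and Gm3417 (chr17:14978813-14979062, minus strand) is a predicted gene, with a score of 122. Set (chr2:30066224-30066473, plus strand) encodes a histone chaperone, with a score of 115, and Ndufa7 (chr17:33824322-33824571, plus strand) a subunit of mitochondrial complex I, with a score of 110. H3c8 (chr13:23535168-23535417, plus strand) and H2ac13 (chr13:21716162-21716411, plus strand) encode core histones and had scores of 94.9 and 88.2.
Hectd4: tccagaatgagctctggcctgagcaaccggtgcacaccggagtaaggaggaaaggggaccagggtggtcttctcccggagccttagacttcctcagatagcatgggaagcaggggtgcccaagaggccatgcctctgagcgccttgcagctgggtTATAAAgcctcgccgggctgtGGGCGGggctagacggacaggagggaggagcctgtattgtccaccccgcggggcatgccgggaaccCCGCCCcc
Rack1: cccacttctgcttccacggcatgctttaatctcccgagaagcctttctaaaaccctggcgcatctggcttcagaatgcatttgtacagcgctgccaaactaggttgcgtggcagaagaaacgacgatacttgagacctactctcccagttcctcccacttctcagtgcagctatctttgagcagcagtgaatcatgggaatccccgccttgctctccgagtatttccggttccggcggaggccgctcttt
Mdp1: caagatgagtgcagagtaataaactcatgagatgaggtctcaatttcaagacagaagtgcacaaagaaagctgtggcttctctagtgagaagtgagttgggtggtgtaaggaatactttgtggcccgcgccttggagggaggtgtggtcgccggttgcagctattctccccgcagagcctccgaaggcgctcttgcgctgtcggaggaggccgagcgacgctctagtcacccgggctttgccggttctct
Gm3417: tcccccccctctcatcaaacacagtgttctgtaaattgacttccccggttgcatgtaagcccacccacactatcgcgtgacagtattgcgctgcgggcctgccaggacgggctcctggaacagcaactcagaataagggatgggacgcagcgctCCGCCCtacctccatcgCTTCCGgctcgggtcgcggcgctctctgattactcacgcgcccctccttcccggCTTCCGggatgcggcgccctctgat
Set: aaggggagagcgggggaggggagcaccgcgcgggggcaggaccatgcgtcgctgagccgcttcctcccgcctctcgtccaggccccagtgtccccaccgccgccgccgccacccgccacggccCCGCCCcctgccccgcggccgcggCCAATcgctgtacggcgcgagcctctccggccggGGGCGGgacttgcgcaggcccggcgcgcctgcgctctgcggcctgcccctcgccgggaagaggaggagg
Ndufa7: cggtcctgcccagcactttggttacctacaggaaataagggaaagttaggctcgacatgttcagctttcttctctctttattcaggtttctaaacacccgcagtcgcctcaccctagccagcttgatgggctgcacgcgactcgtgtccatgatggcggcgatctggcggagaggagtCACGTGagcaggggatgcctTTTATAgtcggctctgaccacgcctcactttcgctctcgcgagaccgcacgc
H3c8: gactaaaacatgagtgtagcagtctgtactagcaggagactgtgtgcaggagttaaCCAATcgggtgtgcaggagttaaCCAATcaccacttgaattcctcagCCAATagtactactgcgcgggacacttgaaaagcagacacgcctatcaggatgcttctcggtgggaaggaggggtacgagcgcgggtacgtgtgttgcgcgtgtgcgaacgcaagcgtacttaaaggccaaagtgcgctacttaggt
H2ac13: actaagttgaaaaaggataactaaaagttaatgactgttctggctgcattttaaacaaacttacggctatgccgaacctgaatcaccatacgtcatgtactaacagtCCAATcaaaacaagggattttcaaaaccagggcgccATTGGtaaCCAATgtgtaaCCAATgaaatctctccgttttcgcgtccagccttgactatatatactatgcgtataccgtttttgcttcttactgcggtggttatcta
All 8 promoters were in the authors' KAP1 only class, which means that KAP1 but not vehicle Ring1b was called there. Set held 35 CpG pairs in these bases and H2ac13 held 10. H3c8 held the CCAAT box 3 times, H2ac13 held it 4 times over both strands, and Rack1 and Mdp1 held none of the 7 motifs in these bases.

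The KAP1-site peaks were mostly narrow and low-scoring, and they sat inside the KAP1 peaks. Their scores ran from 50.1 to 3013, with a median of 60.03 and quartiles of 54.4 and 71.2, where the lowest score among the other peaks was 50.01. The other knockout-list peaks had a median of 58.5 and quartiles of 53.6 and 66.3, so the distributions overlapped over most of their range. A score of 100 or more was reached by 79 KAP1-site peaks, 7.40% (5.90% to 9.13%), and by 3.48% (3.05% to 3.94%) of the others. Widths had a median of 189 bp, against 155 bp for the others, and wider peaks meet another list more often. KAP1 peaks enclosed 943 of the 1068 peaks completely, and 1034 were covered by KAP1 over at least 50% of their length.

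The summits of both lists lay close to each other, but the overlap rule itself limits how far apart they can be. The median width was 189 bp for the KAP1-site peaks and 684 bp for the KAP1 peaks they overlap. No reference distance was computed, so the closeness describes the choice and is not a finding. The median distance between the summit of a KAP1-site peak and that of its KAP1 peak was 95 bp, with quartiles of 33 and 232 bp. It was 100 bp or less for 559 peaks, 52.3% (49.3% to 55.4%). The 1068 peaks fell on 1043 KAP1 peaks, which is 1.33% of the KAP1 list outside chromosome 8. Of these, 1019 held 1 peak, 22 held 2 and 2 held 4, and the 24 with several were 0.0305% of that list. The KAP1 peaks that were met had a median KAP1 score of 131, with quartiles of 81.8 and 224, beside a median of 96.2 over the KAP1 list outside chromosome 8. The share of KAP1 peaks that held a KAP1-site peak was 0.785% (0.666% to 0.919%) in the lowest of 4 nearly equal groups by KAP1 score and 2.15% (1.95% to 2.36%) in the highest. Among KAP1 peaks of 400 to under 600 bp, where widths differ less, the share that held a KAP1-site peak was 0.938% (0.722% to 1.20%) in the lowest group. It was 1.37% (1.05% to 1.77%) in the highest, and these intervals overlap.

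**Figure D1:**
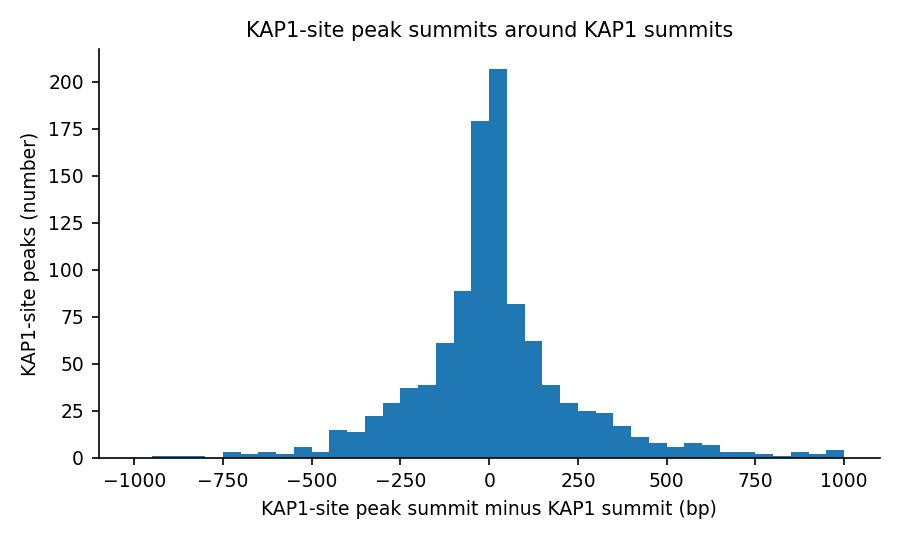
Number of KAP1-site peaks (vertical axis) by the distance in bp from the summit of the KAP1 peak they overlap to their own summit (horizontal axis, bins of 50 bp); 18 peaks farther than 1000 bp are not drawn. Most of the distances lie near 0, with 559 of 1068 within 100 bp. The overlap rule itself limits these distances.

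Just inside the rule, the smallest overlaps were 3 bp in Fam78b, 6 bp at a peak nearest to Olfm4, 7 bp in Zfp273, and 10 bp in Scamp1 and 1308 bp from Lemd1. Just outside it, a peak in Ano1 missed the nearest KAP1 peak by 2 bp, a peak nearest to Gm53057 by 8 bp, peaks nearest to Pank2 and at the Med17 promoter by 10 bp, and one nearest to Slc2a1 by 15 bp. The 5 peaks inside scored from 54.2 to 62.0 and the 5 outside from 54.1 to 55.7. Only 17 KAP1-site peaks shared less than 50 bp with KAP1, and 53 other peaks lay within 100 bp of it.

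Promoters held 319 of the KAP1-site peaks, 29.9% (27.1% to 32.7%), beside 4.69% over all knockout-list peaks outside chromosome 8. Promoters here are the authors' deposited regions, which reach 1 kb to either side of where a transcript begins. A further 330 peaks (30.9%) lay in gene bodies and 419 (39.2%) between genes. Most deposited promoters carry KAP1, because the tables were made from the KAP1 list that the rule also uses. Of the KAP1 peaks outside chromosome 8, 18.4% lay at a deposited promoter. RefSeq promoter windows, which were not chosen by either protein and run from 250 bases before a start to 50 after it, met 227 KAP1-site peaks, or 21.3% (18.8% to 23.8%). The share was 3.77% over all knockout-list peaks and 12.8% over the KAP1 list, both outside chromosome 8. RefSeq starts were at hand for the chromosomes of 1039 of the peaks, and 149 of these, 14.3% (12.3% to 16.6%), had their summit within 100 bp of one. The same was true of 6.44% of KAP1 peaks and 0.710% of the other knockout-list peaks. These shares were set side by side and not tested.

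**Figure D2:**
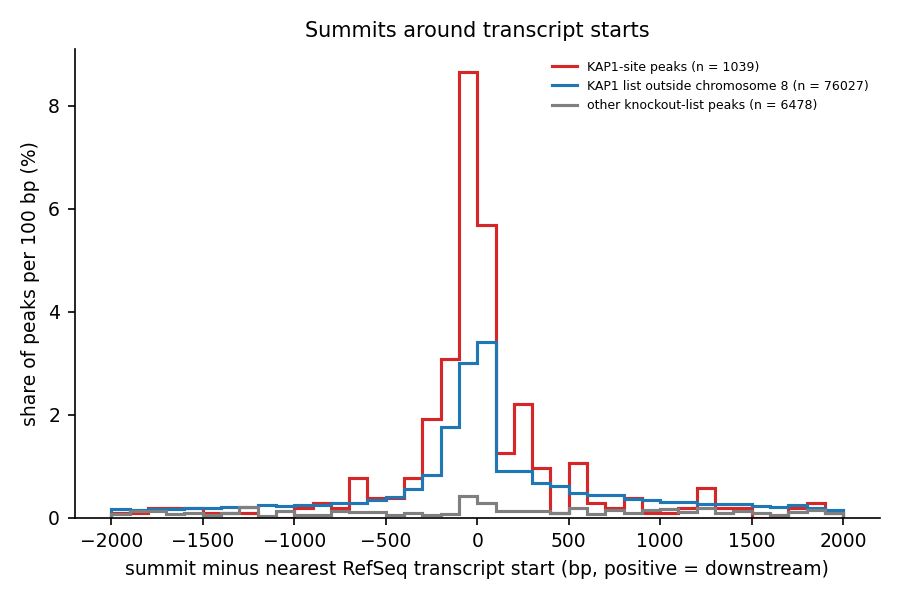
Share of peaks per 100 bp (vertical axis, percent) by the signed distance of the summit from the nearest RefSeq transcript start (horizontal axis, bp), for the 1039 KAP1-site peaks, 76027 KAP1 peaks and 6478 other knockout-list peaks on chromosomes with RefSeq starts. The KAP1-site peaks are highest in the 100 bp on each side of the start, where 149 of them lie.

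Where the promoter's own gene had a RefSeq start, most summits lay near it. These peaks were chosen by overlap with regions around transcript starts, which itself limits the distance, and no reference distance was computed. Over these 261 promoter peaks the median distance was 96 bp, and 190 lay within 250 bp of the start. The summit lay within 250 bp upstream for 122 peaks and within 250 bp downstream for 68. A promoter region of more than 1 gene was met by 64 of the 319 peaks.

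By promoter class, 287 KAP1-site peaks lay at KAP1 only promoters, 32 at shared promoters with both KAP1 and vehicle Ring1b, and none at Ring1b only promoters, a class that by its definition lacks KAP1. Over all knockout-list peaks outside chromosome 8 these classes took 4.14%, 0.538% and 0.0128%. Seen from the promoters, 284 of the 6479 KAP1 only promoters outside chromosome 8 had a KAP1-site peak, 4.38% (3.90% to 4.91%). Of the 5033 shared promoters 31 had one, 0.616% (0.419% to 0.873%). Both classes carry KAP1, but their KAP1 peaks were not matched for score or width. The intervals cover counting error over promoters, which are not replicates. The classes were not tested against each other.

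The highest-scoring peaks at KAP1 only promoters lay at genes of varied function. Erdr1, on chromosome Y, had the highest score of all KAP1-site peaks (3013, with a KAP1 score of 247). Vmn2r29, which encodes a vomeronasal receptor for pheromones, followed with 305 (chromosome 7, 7277789 to 7278445), beside a KAP1 score of 260. The next were Hectd4, then Rrp1 with 130, which encodes a protein of ribosomal RNA processing, then Rack1 and then Hexim2 with 127, which encodes an inhibitor of the elongation kinase P-TEFb. Mdp1 and Gm3417 complete the first 8. Apart from Erdr1 and Vmn2r29 these peaks were between 176 and 679 bp wide.

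At shared promoters the scores were lower, with a median of 56.0 against 63.3 at KAP1 only promoters. Zeb1, which encodes a transcription factor of epithelial to mesenchymal transition, had a score of 196 (chromosome 18, 5591967 to 5592396) on a weak KAP1 peak of 63.2. Maz, a zinc finger transcription factor gene, had 158 (chromosome 7, 127027162 to 127027706) beside a KAP1 score of 236. The divergent pair 4933439C10Rik and Zkscan17 had 105, and Ctnnal1, a relative of alpha-catenin genes, had 104.06. Klf13, Tsc22d1, Nova2 and Rtcb followed with 75.9, 74.5, 71.3 and 69.3. Of these 8, Tsc22d1 and Rtcb had the knockout-list peak directly on a vehicle Ring1b peak. The others did not meet a vehicle Ring1b peak.

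The promoter windows under KAP1-site peaks were rich in CpG. The 274 RefSeq windows that met one had a median of 62.7% G and C and a median ratio of observed to expected CpG of 0.819. The ratio passed 0.6 in 82.8% of them, against 71.0% of the 12336 windows with KAP1 and no KAP1-site peak and 35.7% of all 31409 windows outside chromosome 8. Windows with a knockout-list peak and no KAP1 passed it in 50.0% of 76 cases. The GC box was found in 73.7% of the windows with a KAP1-site peak, 65.3% of the other KAP1 windows and 35.6% of all windows. In the same order, the ETS core was found in 36.9%, 29.2% and 16.8%, and the CCAAT box in 45.6%, 35.6% and 37.3%. The TATA box was found in 8.03%, 6.12% and 13.7%, and the E-box in 11.7%, 9.96% and 7.14%. The cAMP response element was found in 5.11%, 2.80% and 1.75%, and the NRF1 motif in 2.55%, 1.90% and 0.958%. In the windows with a KAP1-site peak these 2 shares rest on only 14 and 7 of 274 windows, and no motif share was tested. The 76 windows with a knockout-list peak and no KAP1 held the NRF1 motif in 10.5%, the cAMP response element in 5.26%, the TATA box in 10.5% and the CCAAT box in 44.7%, which was above or close to the windows with a KAP1-site peak. They held the GC box in 32.9%, the ETS core in 28.9% and the E-box in 7.89%, which was below them. Among these 76 windows the NRF1 motif was in 8 and the cAMP response element in 4. In the 4386 windows with both KAP1 and vehicle Ring1b the CpG ratio passed 0.6 in 77.5%, against 82.8%. The GC box was found in 72.0% of them and the E-box in 12.2%, close to the windows with a KAP1-site peak. They held the ETS core in 20.8%, the CCAAT box in 33.3% and the TATA box in 5.77%. The cAMP response element was found in 2.23% and the NRF1 motif in 1.53%. From the ETS core on, each share was below that of the windows with a KAP1-site peak. A match is a string of letters and not a bound site.

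Among the gene lists examined, the share was largest for replication-dependent histone genes, which supply histones during DNA synthesis and lie in clusters. Of its 63 genes outside chromosome 8, 30 had a KAP1-site peak in their deposited promoter region, or 47.6%, beside 1.78% of all 20844 protein-coding genes and 2.99% of those with a deposited promoter. Counted by their own RefSeq start within 1 kb of a peak, the numbers were 25 of 58 genes, or 43.1%, beside 1.86%. Only 14 separate peaks stood behind these 30 genes, since 12 of them lay in promoter regions of more than 1 histone gene. KAP1 itself was called at promoters of 60 of the 63 genes, and vehicle Ring1b at 8. Histone genes are near-identical in sequence, and it is not known here how reads that match several copies were placed.

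The 14 histone peaks had scores from 55.7 to 94.9, with a median of 69.4, and KAP1 scores from 51.3 to 475. On chromosome 13 there were 12, and on chromosome 3 there were 2. The highest lay at H2ac10 and H3c8 (chromosome 13, 23535295 to 23535866), followed by H2ac13 with its neighbours H2bc13 and H3c10 (21716349 to 21716803) and by H2ac4 with H3c2 (23751166 to 23751561, score 87.8). H1f2, the only linker histone gene among the listed genes with a peak, had a score of 63.0 on the strongest of these KAP1 peaks, 475. The summit lay downstream of the nearest histone start in 13 of the 14, by 246 to 385 bp with a median of 283 bp, so inside the gene and after the promoter bases printed above for H3c8 and H2ac13. The exception was H2bc14, at 444 bp upstream. The KAP1 summit was within 100 bp in 12 of 14 and at most 206 bp away, and none of the 14 met a vehicle Ring1b peak.

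**Figure D3:**
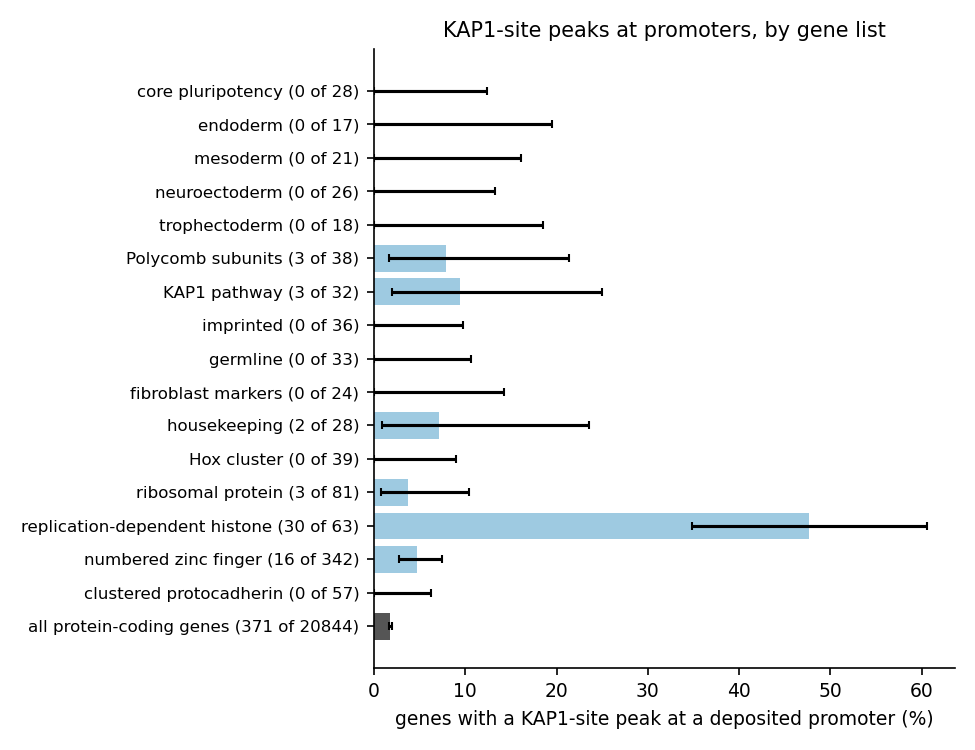
Share of each gene list (horizontal axis, percent) with a KAP1-site peak in a deposited promoter region, with the number of genes beside each name; bars are shares, error bars are 95% exact intervals over genes, and the dark bar is all protein-coding genes outside chromosome 8. The histone list stands at 30 of 63 genes, and the lists of Hox, lineage, imprinted, germline, pluripotency, fibroblast and protocadherin genes at 0.

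None of the listed developmental regulators had a KAP1-site peak at its promoter. The lists do not hold every such gene, and Zeb1, which had one, is not on them. Over the lists of Hox cluster, endoderm, mesoderm, neuroectoderm and trophectoderm genes together, 0 of 120 had one, which allows a share of up to 2.50%. The share was 1.78% of all protein-coding genes and 2.99% of those with a deposited promoter, which 113 of the 120 had. The limit lies above the first of these shares and below the second, and the difference was not tested. Of these 120 genes, 84 carried KAP1 and 109 carried vehicle Ring1b at a promoter. Neither background share is matched for promoter class, so the count of 0 cannot be read apart from class. Outside chromosome 8, a KAP1-site peak was at 4.38% of KAP1 only, 0.616% of shared and 0% of Ring1b only promoters. The count was also 0 for 28 pluripotency genes, 36 imprinted genes, 33 germline genes, 24 fibroblast markers, which would mark the feeder cells, and 57 clustered protocadherin genes. Esrrb and Lin28a, a nuclear receptor gene and an RNA-binding protein gene of pluripotent cells, had KAP1-site peaks inside the gene. A peak inside the gene and none at the promoter was found for 314 of all 20844 protein-coding genes. The same held for 3 of 38 Polycomb subunit genes (Aebp2, Cbx7 and Jarid2) and 7 of 342 numbered zinc finger genes. Esrrb held 3, with scores of 57.3, 100.5 and 154, the highest at 86501691 to 86502068 on chromosome 12. Lin28a held 1, with a score of 64.5 (chromosome 4, 134016791 to 134017064). Stk31 of the germline list had one of 52.3 inside the gene. With lists of this size, a count of 0 in any single list allows a share of 5.26% or more, which is above both background shares.

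A few genes of the Polycomb and KAP1 systems had a KAP1-site peak at the promoter, where the share was 1.78% over all protein-coding genes and 2.99% over those with a deposited promoter. Of 38 Polycomb subunit genes (7.89%), Mtf2, Pcgf6 and Phf1 had one at the promoter, with scores of 98.4, 79.4 and 78.1. Mtf2 and Phf1 encode Polycomb-like proteins of Polycomb repressive complex 2, and Pcgf6 a subunit of a variant Polycomb repressive complex 1. Summits lay 11, 1 and 91 bp upstream of their starts. Of 32 KAP1 pathway genes there were 3 (9.38%), namely Cbx3, Cbx1 and Zfp568, with scores of 108, 80.0 and 75.8. Cbx1 and Cbx3 encode heterochromatin proteins HP1 beta and gamma, and Zfp568 a KRAB zinc finger protein. The Cbx3 peak was 886 bp downstream of a RefSeq start that is not a start of Cbx3 itself. Of these 3 genes, only Cbx1 had its own RefSeq start within 1 kb of its peak. All 6 promoters were KAP1 only. Counted by a RefSeq start within 1 kb of a peak, there were 3 of 32 Polycomb subunit genes (9.38%) and 1 of 29 KAP1 pathway genes (3.45%). By that measure the share was 1.86% over all protein-coding genes with a RefSeq start. The counts are small, and the intervals drawn in the plot of gene lists are wide.

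Among 342 numbered zinc finger genes 16 had a KAP1-site peak at the promoter, or 4.68%, beside 1.78% of all protein-coding genes. The share was 2.99% of protein-coding genes with a deposited promoter, which 265 of the 342 had. The 16 were led by Zfp213, Zfp825 and Zfp113, with scores of 87.2, 85.3 and 84.8. Ribosomal protein genes had 3 of 81, or 3.70%, beside the same 1.78%, and 63 of the 81 had a deposited promoter. The 3 were Rps28, Rps9 and Rps29, with scores of 110, 65.6 and 56.7. Rps28 shares its peak with Ndufa7, shown above. The housekeeping genes Ywhaz and Eno1 had scores of 59.7 and 52.9 and were the only 2 of 28, or 7.14%.

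Small RNA genes were met as well, a group chosen after its values were seen. KAP1-site peaks overlapped annotated snRNA genes 8 times, or 0.749% (0.324% to 1.47%), against 0.0610% of KAP1 peaks outside chromosome 8 and 0.0446% of the other knockout-list peaks. They overlapped tRNA genes 6 times, or 0.562% (0.206% to 1.22%), against 0.178% and 0.0297%. The snRNA peaks scored from 50.1 to 77.5, and 7 of them were 381 to 643 bp wide, while the median over KAP1-site peaks was 189 bp. The tRNA peaks scored from 51.0 to 134, and the highest covered n-TPcgg1, a proline tRNA gene on chromosome 17 (23540823 to 23541034). These genes too have many near-identical copies.

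The KAP1-site peaks were not spread evenly along the genome. On the 18 autosomes used, between 7.98% (chromosome 14) and 18.5% (chromosome 4) of the knockout-list peaks were KAP1-site peaks. The number per Mb of KAP1 peak ran from 11.4 on chromosome 1 to 41.2 on chromosome 13. Chromosome X had 13, or 5.20% of its knockout-list peaks, and chromosome Y had 32, or 16.4%. Per Mb of KAP1 peak, however, chromosome X had 32.2, above every autosome except chromosome 13, and chromosome Y had 342. A further 2 lay on an unlocalised contig of chromosome 4.

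**Figure D4:**
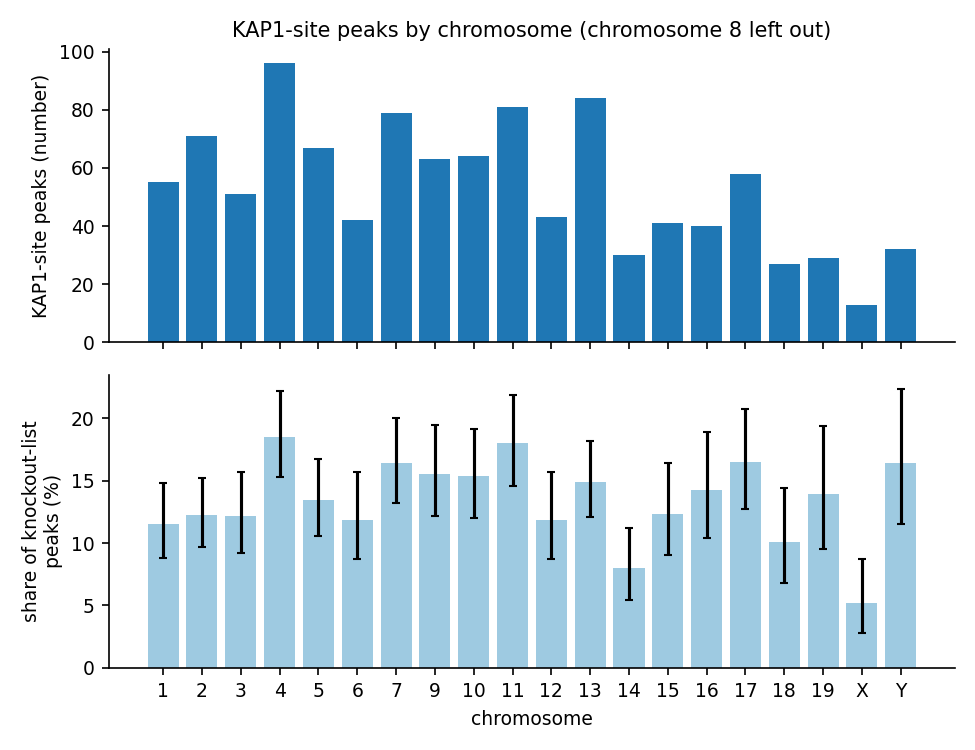
Number of KAP1-site peaks (upper panel) and their share of the knockout-list peaks of each chromosome (lower panel, percent, with 95% exact intervals as error bars). Chromosome 4 has the highest autosomal share at 18.5% and chromosome X stands at 5.20%; neither panel is scaled to the KAP1 peaks of the chromosome.

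All 32 peaks of chromosome Y lay in 0.123 Mb at its tip (90718524 to 90841865), where the knockout list held 42 peaks and the KAP1 list 25. Chromosomes X and Y share sequence at their tips, the pseudoautosomal region. Where that region begins was not examined, so it is not known here which of the 32 peaks lie in it. Their score was 115 at the median and their width 793 bp, and 10 of the 12 highest-scoring KAP1-site peaks were among them. After Erdr1 the highest had scores of 1692 (90736760 to 90740674) and 592 (90740893 to 90745090), both inside the KAP1 peak with the highest KAP1 score of all, 3100. Between them stood a peak with 1055 (90793135 to 90794951). The 5 widest KAP1-site peaks, from 1817 to 6996 bp, were also on chromosome Y, as were both KAP1 peaks that held 4 of them. On chromosome X, 5 of the 13 peaks lay within 169971595 to 169982163, nearest to or in Mid1, with scores up to 113. Without chromosomes X and Y the highest score was 305 and the median 59.6. The libraries come from different lines, so the number of sex chromosomes in each cannot be told apart from the deletion.

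The densest autosomal stretch was on chromosome 13 (65484601 to 66807934), a window chosen after its values were seen. Its 1.32 Mb held 38 KAP1-site peaks among 190 knockout-list and 139 KAP1 peaks. Chromosome 13 as a whole held 84 among 563 knockout-list peaks, or 14.9%, beside 13.7% over all knockout-list peaks outside chromosome 8. Knockout-list peaks without KAP1 were thus dense in this stretch too. The scores of the 38 ran from 50.5 to 225, with a median of 80.8, and their KAP1 scores from 56.6 to 423. None lay at a deposited promoter and none met a vehicle Ring1b peak. The stretch holds 11 protein-coding genes of RefSeq, of which only Zfp640 has a numbered zinc finger symbol. The others have provisional symbols, and whether they too encode zinc finger proteins was not examined. Of the 12 highest scores off chromosomes X and Y, 7 lay here, led by a peak 60279 bp from Gm19428 with 225 (65484601 to 65485494). On chromosome 3 a stretch of 0.478 Mb (96219957 to 96697476) held 8 KAP1-site peaks, with scores from 53.2 to 75.1. It contains 10 histone genes and 8 snRNA genes, and 2 of the peaks met vehicle Ring1b.

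**Figure D5:**
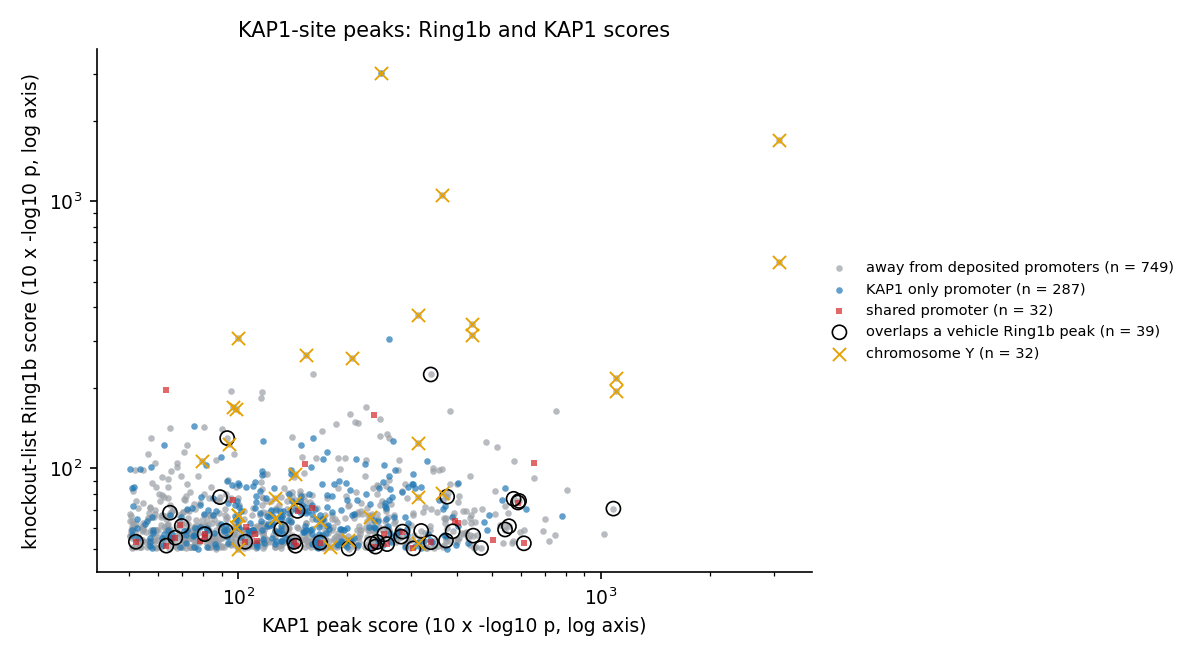
Score of each KAP1-site peak in the knockout list (vertical axis, log scale) against the score of the KAP1 peak it overlaps (horizontal axis, log scale), both 10 times -log10 p; colours give the promoter class, open circles the 39 peaks on a vehicle Ring1b peak and crosses the 32 peaks of chromosome Y. The crosses hold most of the scores above 200, and most circles lie near the floor of the knockout list.

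Few KAP1-site peaks lay where Ring1b was called in vehicle-treated Ring1b fl/fl cells. The number was 39 of 1068, or 3.65% (2.61% to 4.96%), beside 0.513% of all knockout-list peaks outside chromosome 8, and only 1 of the other 6732 knockout-list peaks met vehicle Ring1b. The share was 2.25% for KAP1-site peaks above their median score and 7.21% with vehicle Ring1b within 1 kb. Of the KAP1 peaks outside chromosome 8, 10886 (13.8%) overlapped vehicle Ring1b, whose whole list held 13516 peaks. Where vehicle Ring1b lies on KAP1, a peak without KAP1 can hardly meet it. The rule therefore favours the contrast between the 39 peaks and the 1 other peak, which is not a finding. Both Ring1b lists share their control library, so they are not independent. The 39 peaks lay at shared promoters (17), in gene bodies (7) and between genes (15).

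The vehicle Ring1b peaks concerned were mostly weak, and the KAP1 peaks mostly strong. Vehicle Ring1b scores at the 39 had a median of 75.9 with quartiles of 62.2 and 113, against a median of 116 over the vehicle list, and 9 of the 39 were above that median. The KAP1 scores had a median of 253, against 132 over all KAP1-site peaks. Scores in the knockout list were near its floor, with a median of 56.7. The Ring1b summits of both lists were 111 bp apart at the median, and 30 of the 39 peaks were enclosed by the vehicle peak.

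The highest knockout-list score among the 39 was 225, at a peak 23668 bp from Elovl6, a fatty acid elongase gene (chromosome 3, 129508144 to 129508717), with a vehicle Ring1b score of 111 and a KAP1 score of 339. Next came a peak of 130 in Ank3, which encodes the membrane adaptor ankyrin-G (chromosome 10, 69910576 to 69910869), with a vehicle score of 68.4 and a KAP1 score of 93.2. The other 10 highest had knockout-list scores from 60.8 to 78.4. They lay inside Ahi1 and Srrm4, at the promoters of Tsc22d1 and Rtcb, 1499 bp from Lama5, 321 bp from Pth2 and 1033 bp from Ptma. For the other 3 the nearest genes were Bcas1, Zfp644 and Nufip1, at 56074, 60218 and 129825 bp. Near Ptma, which encodes prothymosin alpha, the vehicle Ring1b score was 418 and the KAP1 score 1082, on a KAP1 peak 4791 bp wide. A vehicle score of 400 or more was found at 2 of the 39. The other was Tmem229a, with 2158 in the vehicle list and 55.0 in the knockout list. Scores of the 2 lists rest on different libraries and do not measure a change in Ring1b.

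On autosomes, the strongest KAP1 peaks that held a KAP1-site peak lay near Ptma, 1108 bp from Ctnna1 (KAP1 score 1018), which encodes alpha-catenin, and 35556 bp from Slc2a1 (806), which encodes a glucose transporter. The knockout-list scores there were 70.7, 56.7 and 82.7. Off chromosomes X and Y the median knockout-list score was 59.6 and the upper quartile 70.3, so the peaks nearest to Ptma and Slc2a1 lay above that quartile and the peak nearest to Ctnna1 below the median.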

How the data were processed

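MACS 1.4.2 (peak calling software), CASAVA 1.8.2, bedtools 2.16.2 and Bowtie2 are named, without roles, in the submitters' processing notes, together with the build mm10 (GRCm38). Peak lists (3) and gene tables (6) were deposited by the authors, and in them each peak or region carries a score of 10 times the -log10 p against its control library, per the file headers. The score ranks peaks within 1 list only. The sources used here give neither read depths nor how reads that match several places were handled. Coordinates are 1-based on mm10.

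Overlap meant at least 1 bp, computed with pandas 2.3.3 and numpy 2.4.6 and checked on simulated intervals. Shares have exact (Clopper-Pearson) intervals at the 95% level from scipy 1.17.1, and a share of 0 has a limit of 3 counts. Gene names came from RefSeq (GRCm38.p6), which matched 12939 of the 13039 deposited promoters by accession. A deposited region that lists several genes counts for each that lies within 5 kb. RefSeq promoter windows hold no entry for chromosome 18. The peaks, the gene lists and the rule for named genes were chosen with earlier results of these data known. Named are the 12 highest-scoring and 5 widest peaks, up to 12 on vehicle Ring1b, up to 8 of each promoter class, those at the 5 strongest KAP1 peaks, KAP1 peaks with 3 or more, up to 3 genes of each list, and the 5 peaks on each side of the overlap limit. Groups outside this rule, such as the histone sequences printed, the small RNA genes and the dense stretches, were chosen after their values were seen.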

Additional observations from a re-analysis of the deposited data

How the results depend on the processing

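No test was run, and alternatives moved shares only. The share of knockout-list peaks at KAP1 was 20.6% with KAP1 within 1 kb, 9.15% with KAP1 peaks above their median score and 15.4% with knockout-list peaks above theirs. The share at promoters was 33.5% for KAP1-site peaks above their median score, 33.6% with KAP1 peaks above theirs and 36.0% with promoters widened by 4 kb. The share on vehicle Ring1b was 2.25% for KAP1-site peaks above their median score and 7.21% with Ring1b within 1 kb. Covering 50% of the peak and autosomes alone left all 3 shares within their 95% intervals, as did chromosome 8 for the first share (13.6%) and KAP1 peaks above their median for the third (4.20%). The cause of the moves was not tested. No paired analysis was possible because each group has 1 library and no result comes from a test. No replicate could be left out.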
